A study of Mus musculus with 10 samples.

Results

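The genes described here encode proteins that exocrine glands and mucosal surfaces release. They are the secretoglobins (Scgb), the major urinary proteins (Mup), the lipocalins and odorant-binding proteins (Lcn, Obp), the BPI fold proteins (Bpif), the WAP domain proteins (Wfdc) and the mucins (Muc), with Aqp5, Prol1, Pip, Glycam1, Spt1, Dnase1, Bricd5, Ltf and Lyz1 added by name. They were chosen by symbol, and 58 symbols in the count table matched. Of these, 56 reached a total of 20 counts over the 10 libraries and make up the set, out of 15790 genes in the table. Bpifa2 and Bpifa6 had 11 counts each and were left out, and the lowest totals inside the set were 25 counts each for Bpifb6 and Lcn12.

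The libraries were made from thymic epithelial cells (TEC) sorted from digested mouse thymi, by MARS-seq, a method that counts the 3′ ends of transcripts. Foxn1 encodes the transcription factor that TEC need to differentiate. The group AR3_mut has 3 libraries labelled Foxn1 del AR3 mut, and AR3_het has 3 libraries labelled Foxn1 del AR3 het, both on C57BL/6 at 4.5 weeks. The group nude has 4 libraries labelled nu/nu, on ICR at 5 weeks, so strain and age cannot be told apart from genotype in that group. The labels do not place the deletion relative to the Foxn1 transcript, give no sort markers, and leave unsaid whether each library is from an animal of its own. P-values therefore measure only the spread between these libraries, which may be technical.

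Levels are CPM, the counts scaled to a common library total, on a library size scaled by TMM, edgeR's correction for composition. The shallowest library was AR3_mut 3, with 1056066 counts in total, and the deepest AR3_het 1, with 4175851. Foxn1 stood at 1.16 to 1.99 CPM in AR3_mut, 317 to 382 CPM in AR3_het and 0.553 to 1.45 CPM in nude. The summed level of 8 cortical TEC markers was 1315 to 1599 CPM in AR3_mut and 1138 to 1622 CPM in nude, against 20540 to 27100 CPM in AR3_het. For 7 medullary TEC markers the sum was 70.0 to 271 CPM in AR3_mut and 91.1 to 175 CPM in nude, against 1196 to 1968 CPM in AR3_het. The summed level of 10 genes common to epithelia was 2560 to 5862 CPM in AR3_mut and 6326 to 8275 CPM in nude. In AR3_het that sum was 6708 to 10630 CPM, so cortical markers were low in both mutants while epithelial genes remained present. All 8 endothelial markers and all 7 tested fibroblast markers were called higher in each mutant group than in AR3_het (edgeR's adjusted p under 0.05). The share called higher over all tested genes was 21.2% in AR3_mut and 23.7% in nude. The 8 fibroblast markers summed to 2881, 6037 and 5210 CPM in AR3_mut. In nude they reached 8768, 13250, 4611 and 10450 CPM, against 250, 142 and 237 CPM in AR3_het. That sum exceeded the epithelial one in AR3_mut 2, nude 1, nude 2 and nude 4, and lay below it in the other mutant libraries. Endothelial markers summed to 4163, 3617 and 4558 CPM in AR3_mut, 1126, 985, 1439 and 1770 CPM in nude, against 133 to 137 in AR3_het. Sums of different genes do not give shares of cells. AR3_het 3 read as male (Ddx3y at 83.5 CPM, Xist at 1.07 CPM) while the other 9 libraries had Ddx3y at or below 1.04 CPM. In bulk libraries, fewer cells of a type and less RNA per cell cannot be told apart.

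Secretoglobins are small secreted proteins that pair as dimers, and in the mouse a large cluster of them encodes the androgen-binding protein subunits found in saliva and tears. Major urinary proteins and odorant-binding proteins are lipocalins, barrel-shaped proteins that carry small volatile ligands in urine, saliva, tears and nasal mucus. BPI fold proteins and WAP domain proteins act in mucosal defence, the latter often as protease inhibitors, and mucins form the mucus gel or the glycoprotein coat of epithelia. In the thymus, medullary TEC are known to transcribe many such tissue-restricted genes at low levels.

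The upstream sequences below belong to neighbouring genes whose relation to each other is described further on. Scgb2b27 (minus strand) and Scgb1b27 (plus strand) lie on chromosome 7 with 7540 bases between their starts, and Scgb2b26 lies 66880 bases from Scgb2b27. Obp2a, Obp2b, Lcn3 and Lcn11 follow each other on chromosome 2, all on the plus strand. The bases before the annotated starts of Scgb2b27 (chr7:34013943-34014092) and Scgb2b26 (chr7:33945041-33945205) are shown first, from RefSeq on GRCm38.p6. The capitals mark bases that differ, or have no partner, in the alignment of the pair. The Scgb2b26 bases printed end 56 bases before its RefSeq start.
Scgb2b27: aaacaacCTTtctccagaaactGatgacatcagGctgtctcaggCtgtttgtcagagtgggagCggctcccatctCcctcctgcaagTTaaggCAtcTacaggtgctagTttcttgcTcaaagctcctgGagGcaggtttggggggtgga
Scgb2b26: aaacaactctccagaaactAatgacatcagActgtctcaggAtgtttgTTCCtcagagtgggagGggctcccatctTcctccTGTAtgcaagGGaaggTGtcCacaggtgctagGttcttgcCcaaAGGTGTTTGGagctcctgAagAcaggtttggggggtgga
Over 246 aligned columns of the Scgb2b27 and Scgb2b26 promoters, 206 were identical (83.7%), 19 were mismatched and 21 were gapped. The bases before the starts of Obp2a (chr2:25699924-25700042, plus strand) and Lcn11 (chr2:25776867-25777016, plus strand) follow, with capitals at the motifs searched for.
Obp2a: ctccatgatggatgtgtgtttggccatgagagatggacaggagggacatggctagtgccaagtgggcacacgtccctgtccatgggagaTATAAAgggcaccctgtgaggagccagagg
Lcn11: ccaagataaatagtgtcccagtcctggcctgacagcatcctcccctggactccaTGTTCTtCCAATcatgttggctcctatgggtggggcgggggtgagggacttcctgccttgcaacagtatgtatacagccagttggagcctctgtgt
In Obp2a the capitals spell TATAAA, the TATA box, which starts 61 bases before the RefSeq start. The Obp2a bases printed end 32 bases before that start, since the GENCODE start lies further upstream. In Lcn11 they mark CCAAT, 89 bases before the start, and the reverse complement of AGAACA, a core of steroid hormone response elements, 96 bases before it.

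Of the 56 genes, 46 had a promoter in the RefSeq table, and 4 motifs were searched on both strands in the 250 bases before the start. TATAAA was in 16 of the 46 (34.8%) and in 13.0% of 27025 mouse promoters. AGAACA was in 14 of the 46 (30.4%) and in 16.2% of all promoters, and CCAAT in 18 of the 46 (39.1%) and in 34.5%. GACGC, a core of the motif described for FOXN1, was in 0 of the 46 and in 22.6% of all promoters. These matches describe letters only and were not tested, and they say nothing of binding.

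The 56 genes together took 3.60% of all counts in AR3_mut 1, 2.74% in AR3_mut 2 and 0.447% in AR3_mut 3. In AR3_het they took 0.347%, 0.474% and 0.208%. In nude they took 14.7% of nude 1 (exact 95% binomial interval 14.67 to 14.75), 0.484% of nude 2, 2.19% of nude 3 and 1.70% of nude 4. Every one of these intervals covers counting error only. The shares in AR3_mut 3 and nude 2 lay within or just above the AR3_het range, and 1 library of each mutant group held several times more than another library with the same label.

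**Figure D1:**
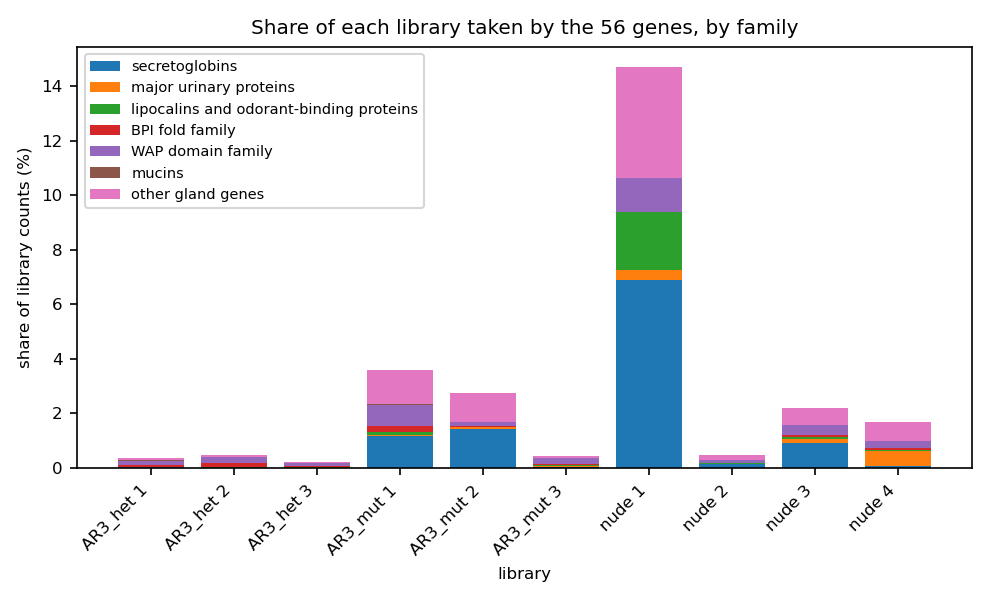
Stacked bars give the share of all counts in each library (y axis, percent) taken by the 56 genes, coloured by family, for the 3 AR3_het, 3 AR3_mut and 4 nude libraries (x axis). The bar of nude 1 reaches 14.7%, and those of AR3_mut 3 and nude 2 stay below 0.5%.

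The leading genes also differed between libraries of a group. Scgb1b27 was the most abundant of all genes in nude 1, with 4.08% of its counts, followed by Prol1 with 3.78%, Scgb2b27 with 2.79%, Obp2a with 1.62% and Wfdc12 with 0.839%. Scgb1b27 was also the most abundant of all genes in AR3_mut 2 with 0.849%, whereas Wfdc2 was in AR3_mut 1 with 0.721%. In nude 2, nude 3 and nude 4 the leading gene of the set was Prol1, with 0.143%, 0.528% and 0.490% of counts. In AR3_het the leading genes were Bpifa1 in replicates 1 and 2, at 0.0803% and 0.129%, and Wfdc18 in replicate 3, at 0.0470%.

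Levels within a group were uneven. Among genes with a group mean of 20 CPM or more, the median SD of log2 CPM over the AR3_mut libraries was 1.91 for 20 members and 0.289 for all 7006 genes. In nude it was 2.54 for 21 members against 0.272 for all 6954 genes, and in AR3_het 0.651 for 15 members against 0.183 for all 7015 genes. The members whose SD lay above the 95th percentile of all such genes numbered 18 of 20 in AR3_mut, 17 of 21 in nude and 9 of 15 in AR3_het. Of the 37 members with at least 10 counts in AR3_mut, 21 were highest in AR3_mut 1, 12 in AR3_mut 2 and 4 in AR3_mut 3. Of 36 such members in nude, 17 were highest in nude 1 and 11 in nude 4, and 20 were lowest in nude 2. Of 47 such members in AR3_het, 27 were highest in AR3_het 2 and 31 were lowest in AR3_het 3, the library that read as male. Because of this unevenness each level below is given library by library, in the order of replicate number.

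**Figure D2:**
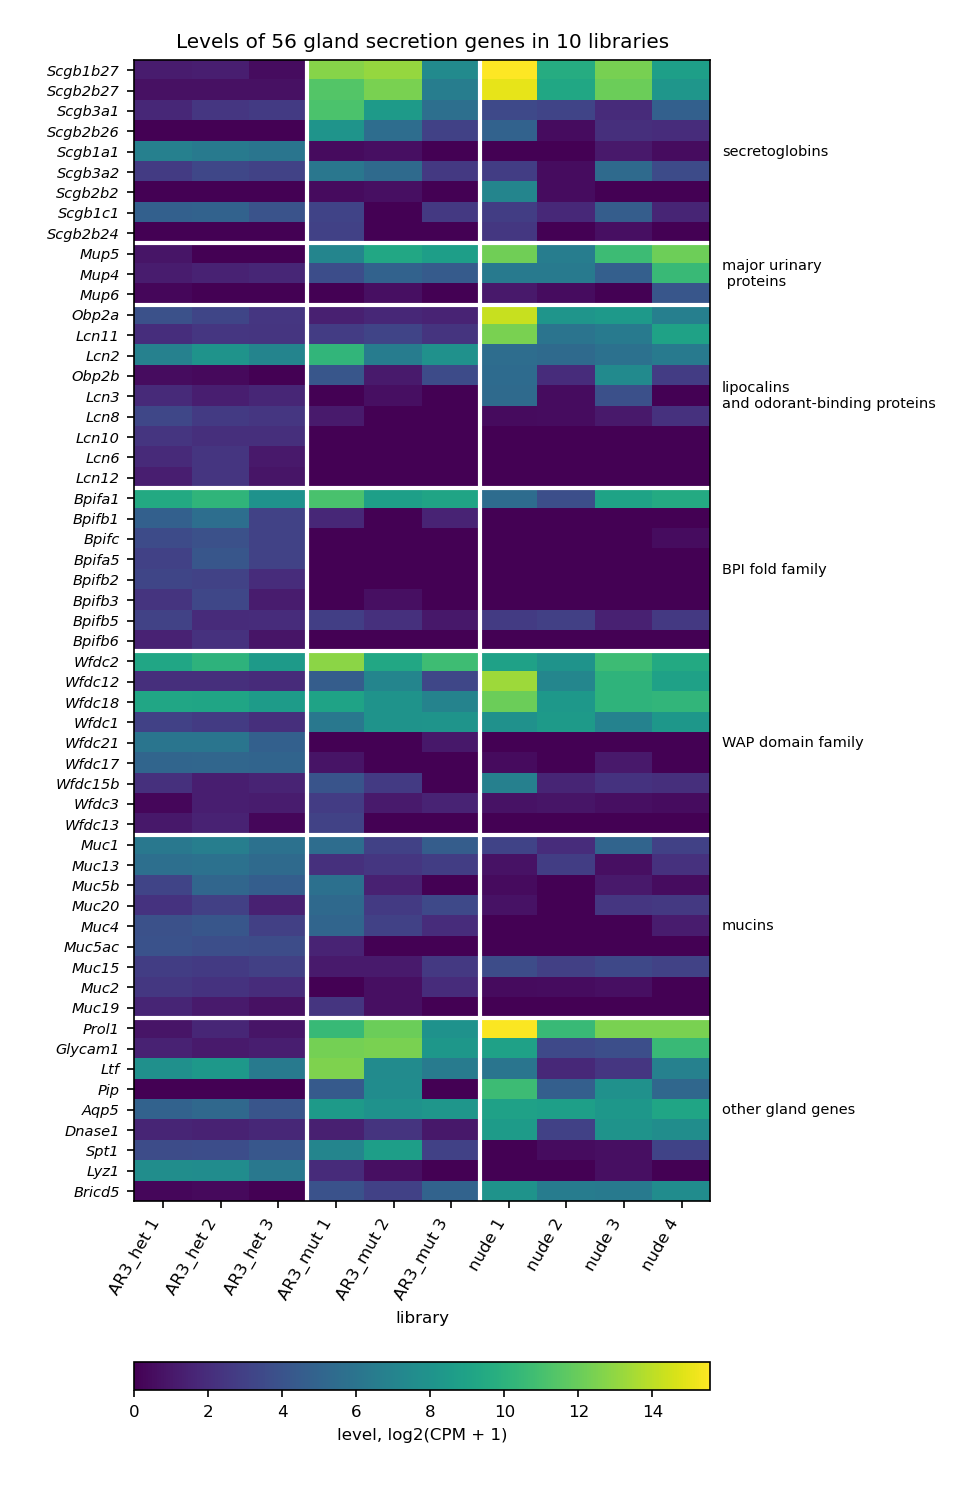
Each row is 1 of the 56 genes, grouped by family, and each column 1 of the 10 libraries; colour gives the level as log2(CPM + 1). Scgb1b27, Scgb2b27, Prol1 and Mup5 are dark in all 3 AR3_het columns and bright in most mutant columns, while Lyz1, Scgb1a1, Wfdc17 and Wfdc21 show the opposite.

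Of the 56 genes, 45 had enough counts to be tested, and a gene was called at an adjusted p under 0.05 in edgeR's quasi-likelihood test over 12912 genes. In AR3_mut against AR3_het, 11 of the 45 were higher and 13 lower, against 21.2% of all tested genes called higher and 20.6% called lower (41.8% in all). In nude against AR3_het, 15 were higher and 16 lower, against 23.7% and 24.2% of all tested genes (47.9% in all). The median log2 fold change over the 45 was 0.62 in AR3_mut and 0.11 in nude, and over all tested genes it was -0.04 and -0.03. In AR3_mut, all libraries were above all AR3_het libraries for 13 of the 45 and below for 17, against 26.1% and 28.9% of all tested genes (55% in all without overlap). In nude this held for 16 and 18 of the 45, against 25.5% and 28.3% (53.8% in all). The 2 comparisons share the AR3_het libraries. The genes differed in direction by family, so the families are taken in turn.

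A secretoglobin, Scgb1b27, was the most abundant gene of the set in nude 1 and AR3_mut 2. Scgb1b27 and Scgb2b27, which encode an alpha and a beta subunit of the androgen-binding proteins, rose in both mutants, Scgb2b26 and Scgb3a1 rose in AR3_mut, and Scgb1a1 fell in both. Of 7 tested members, 4 rose and 1 fell in AR3_mut, and 2 rose and 1 fell in nude. Of all tested genes, 21.2% rose and 20.6% fell in AR3_mut, and 23.7% rose and 24.2% fell in nude.

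Scgb1b27 stood at 6992, 8775 and 172 CPM in AR3_mut, at 1.24, 1.52 and 0.429 CPM in AR3_het, and at 48670, 781, 5272 and 434 CPM in nude. Every mutant library lay above every AR3_het library, and the lowest and highest nude libraries were about as far apart as the lowest mutant library was from AR3_het on a log scale. Its log2 fold change was 12.27 (SE 2.75, adjusted p = 0.00611) in AR3_mut and 13.65 (SE 2.84, adjusted p = 0.00344) in nude. Without nude 1 the latter was 10.97, and without AR3_mut 2 the former was 11.64.

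Scgb2b27 followed the same order of libraries, with 2719, 5613 and 96.5 CPM in AR3_mut and 33300, 616, 4353 and 286 CPM in nude. In AR3_het it stood at 0.621, 0.606 and 0.644 CPM, so the groups did not overlap. The log2 fold change was 12.03 (SE 2.74, adjusted p = 0.0066) in AR3_mut and 13.81 (SE 2.85, adjusted p = 0.00328) in nude, where it was 11.35 without nude 1. The value in AR3_mut was 10.98 without AR3_mut 2, and its call was lost with limma-voom. Of the 50-base stretches at its 3′ end, 5.2% also occur in other genes of the annotation.

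Scgb2b26, a further beta subunit gene, had 0 counts in all AR3_het libraries. It stood at 266, 46.3 and 6.97 CPM in AR3_mut and at 28.9, 0.412, 3.32 and 2.87 CPM in nude. All AR3_mut libraries were above AR3_het, and the pooled level was at least 619-fold higher, taking 3 counts pooled over AR3_het as the upper limit for a count of 0 (edgeR's adjusted p = 0.015). Its fitted log2 value was 9.27 without AR3_mut 1 and 11.86 without AR3_mut 3. In nude it was at least 42.5-fold higher by the same floor, which did not pass the test (adjusted p = 0.0954). Although the promoters of Scgb2b26 and Scgb2b27 are alike over most of the bases shown, Scgb2b26 had 0.098 counts per Scgb2b27 count in AR3_mut 1, 0.00825 in AR3_mut 2 and 0.000868 in nude 1.

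Scgb3a1, an airway secretoglobin, stood at 2275, 355 and 49.8 CPM in AR3_mut, at 2.28, 4.55 and 5.36 CPM in AR3_het, and at 9.75, 8.25, 2.77 and 26.2 CPM in nude. The AR3_mut libraries lay above all others, while nude and AR3_het overlapped. It rose in AR3_mut by 7.78 on the log2 scale (SE 1.47, adjusted p = 0.00245), or 5.66 without AR3_mut 1, and the difference in nude was 1.56 (adjusted p = 0.343). Scgb3a2, its relative in club cells, stood at 72.4, 39.9 and 4.98 CPM in AR3_mut and 5.59, 9.09 and 7.51 CPM in AR3_het, groups that overlapped, with an adjusted p of 0.08.

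Scgb1a1, the club cell secretory protein of the airway, went the other way. It stood at 107, 83.1 and 66.7 CPM in AR3_het, at 0.391, 0.579 and 0 CPM in AR3_mut, and at 0, 0, 1.11 and 0.409 CPM in nude. All 7 mutant libraries were below all AR3_het libraries. From 2 counts in AR3_mut and 3 counts in nude, the pooled log2 ratio to AR3_het was -7.83 (95% counting interval -10.88 to -5.98) and -8.08 (-10.36 to -6.53), with adjusted p = 2.29e-06 and 4.85e-07. The fitted value in nude was -8.94 without nude 3.

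The other secretoglobins were named after their values were seen. Scgb2b2 had 379 of its 382 counts in nude 1 (137 CPM) and was not tested. Scgb2b24 reached 7.04 CPM in AR3_mut 1 and 4.70 CPM in nude 1, had 0 counts in AR3_het and was not tested. Scgb1c1 stood at 26.9, 28.8 and 14.8 CPM in AR3_het and at 7.82, 0 and 4.98 CPM in AR3_mut, with adjusted p = 0.0585. The Scgb1c1 and Scgb2b2 loci overlap genes on the opposite strand, and since no source used here gives the strand setting of the counting, reads of such overlapping genes cannot be told apart.

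Prol1, Pip, Spt1 and Glycam1 encode secreted glycoproteins. Prol1 (a proline-rich protein of the lacrimal gland) and Glycam1 rose in both mutants, Pip in nude and Spt1 in AR3_mut. Prol1 stood at 1416, 4297 and 244 CPM in AR3_mut, at 0.828, 2.12 and 0.858 CPM in AR3_het, and at 45090, 1521, 5554 and 5434 CPM in nude. No mutant library overlapped AR3_het, and Prol1 exceeded 200 CPM in all 7. Its log2 fold change was 10.63 (SE 1.93, adjusted p = 0.002) in AR3_mut, or 9.32 without AR3_mut 2, and 13.49 (SE 2.09, adjusted p = 0.000606) in nude, or 11.71 without nude 1.

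Pip, the prolactin-induced protein of lacrimal and salivary glands, had 0 counts in AR3_het. It stood at 19.9, 187 and 0 CPM in AR3_mut and at 1667, 24.7, 237 and 36.0 CPM in nude. All nude libraries were above AR3_het, while AR3_mut 3 was at 0 like the controls. The pooled level was at least 2345-fold higher in nude (adjusted p = 0.023) and at least 302-fold higher in AR3_mut, which did not pass the test (adjusted p = 0.0692). The fitted log2 value in nude was 11.08 without nude 1, and the call was lost when any AR3_het library was left out.

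Spt1, a salivary protein gene (named Mucl2 in GENCODE M21), stood at 138, 423 and 6.97 CPM in AR3_mut, at 11.2, 11.8 and 17.4 CPM in AR3_het, and at 0, 0.412, 0.553 and 7.78 CPM in nude. AR3_mut 3 lay below all AR3_het libraries although AR3_mut 1 and AR3_mut 2 lay far above. Its log2 fold change in AR3_mut was 3.82 (SE 1.14, adjusted p = 0.0234), which was 2.42 and no longer passed (adjusted p = 0.0966) without AR3_mut 2. The call was also lost when any AR3_het library was left out (adjusted p from 0.0714 to 0.0924), and with limma-voom.

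Glycam1 encodes a mucin-like ligand of L-selectin, made by high endothelial venules and by the lactating mammary gland. It stood at 5151, 5567 and 298 CPM in AR3_mut, at 1.86, 1.21 and 1.502 CPM in AR3_het, and at 473, 9.90, 12.2 and 1471 CPM in nude. All mutant libraries were above AR3_het, with nude 2 and nude 3 nearest to it. The log2 fold change was 11.17 (SE 2.52, adjusted p = 0.00623) in AR3_mut and 8.27 (SE 2.27, adjusted p = 0.0143) in nude, or 6.70 without nude 4; the call in nude was lost with limma-voom and when any AR3_het library was left out.

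Most other high endothelial venule genes were also higher in the mutants. Of 8 tested, 7 were called higher in AR3_mut, and 6 higher and 1 lower in nude. Of all tested genes, 21.2% and 23.7% were called higher. The summed level of 9 such genes was 1129, 1754 and 1124 CPM in AR3_mut and 73.4 to 84.5 CPM in AR3_het. In nude the sum was 1293, 1769, 845 and 1498 CPM, so it was highest in nude 2, where Glycam1 was lowest. Chst4, the sulfotransferase that modifies L-selectin ligands there, stood at 32.5, 79.9 and 55.7 CPM in AR3_mut and at 72.3, 67.2, 16.0 and 54.0 CPM in nude, against 1.45, 0 and 0.429 CPM in AR3_het. Most of that sum came from genes that other endothelial and stromal cells also express, such as Cd34, at 1100 CPM in nude 2. Fut7, a fucosyltransferase of these venules, stood at 7.23, 0, 0.553 and 14.7 CPM in nude, in the same order of libraries as Glycam1. Its value in nude 3 is that of 1 count, and Chst4 did not keep this order. Of milk protein genes, which share the mammary gland with Glycam1, 3 of 6 were tested, of which 1 was lower in AR3_mut, and 1 higher (Lalba, adjusted p = 0.0414) and 1 lower in nude. Csn2 (beta-casein) stood at 203, 304 and 124 CPM in AR3_het and at or below 0.412 CPM in every mutant library. The part of either cell source in the Glycam1 level was not tested.

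**Figure D3:**
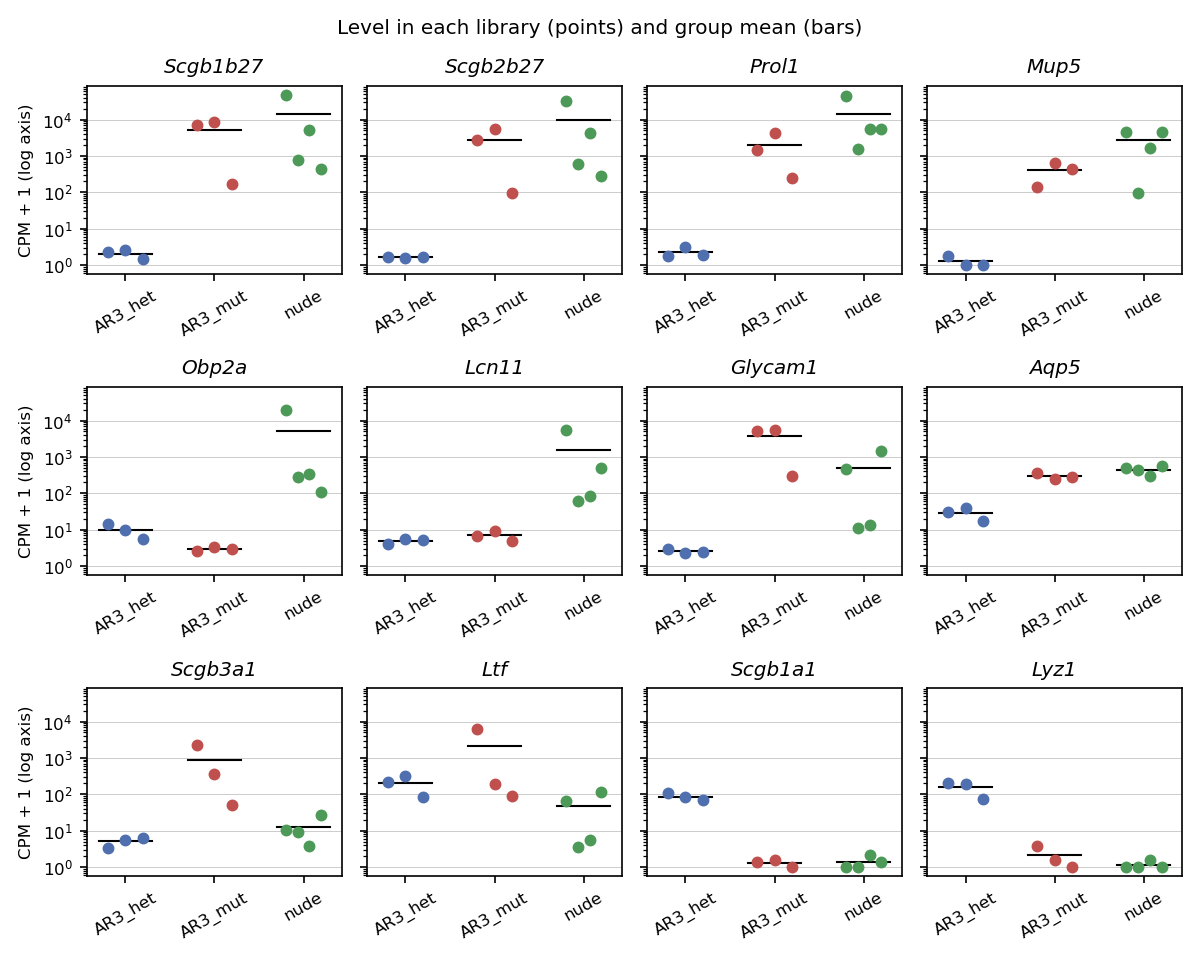
Points give the level of 12 genes in each library as CPM + 1 on a log axis (y), by group (x), and bars the group means. For Scgb1b27 and Prol1 all mutant points lie above all AR3_het points, Aqp5 points lie close together within each group, and for Scgb1a1 and Lyz1 all mutant points lie below AR3_het.

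Of the major urinary proteins, Mup5 rose in both mutants and Mup4 in nude. Mup5 stood at 135, 637 and 427 CPM in AR3_mut, at 0.828, 0 and 0 CPM in AR3_het, and at 4623, 95.7, 1627 and 4447 CPM in nude. The groups did not overlap with AR3_het, and its log2 fold change was 10.14 (SE 1.79, adjusted p = 0.00156) in AR3_mut and 12.90 (SE 1.89, adjusted p = 0.000391) in nude. Since all 4 AR3_het counts were in AR3_het 1, these values became 12.93 and 15.71 without that library, and 9.55 and 12.31 without AR3_het 3.

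Mup4 stood at 11.7, 28.9 and 20.9 CPM in AR3_mut, at 1.24, 1.82 and 2.15 CPM in AR3_het, and at 81.3, 83.3, 24.9 and 1487 CPM in nude. It rose in nude by 7.89 on the log2 scale (SE 1.77, adjusted p = 0.00519), or 5.17 without nude 4, while the log2 difference of 3.52 in AR3_mut did not pass (adjusted p = 0.138). Mup6 had 42 of its 48 counts in nude 4 and was not tested. Some Mup genes share part of their sequence. At the 3′ end, 35.5% of the 50-base stretches of Mup5 and 25.9% of those of Mup4 occur in other genes, against 0.0% for Mup6. The shared stretches of Mup5 occur in 22 other genes and those of Mup4 in 20. The split of counts between Mup5, Mup4 and these other genes is therefore uncertain.

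Among lipocalins and odorant-binding proteins, 3 genes of the chromosome 2 cluster rose in nude and 0 of 6 tested members rose in AR3_mut. Of all tested genes, 23.7% rose in nude and 21.2% in AR3_mut. Obp2a stood at 19320, 277, 327 and 106 CPM in nude, at 13.7, 8.49 and 4.51 CPM in AR3_het, and at 1.56, 2.32 and 1.99 CPM in AR3_mut. All nude libraries lay above AR3_het, and all AR3_mut libraries below it. The rise in nude was 9.13 on the log2 scale (SE 2.30, adjusted p = 0.00938) and 4.72 without nude 1, and the difference in AR3_mut was -2.19 (adjusted p = 0.51).

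Lcn11, the neighbour whose promoter is shown above, stood at 5581, 62.3, 84.6 and 495 CPM in nude, at 3.10, 4.55 and 4.29 CPM in AR3_het, and at 5.87, 8.10 and 3.98 CPM in AR3_mut. The nude libraries again lay above all others, and AR3_mut overlapped AR3_het. The rise in nude was 8.61 on the log2 scale (SE 1.95, adjusted p = 0.00535), or 5.75 without nude 1. Obp2b, between Obp2a and Lcn11, stood at 43.4, 2.89, 174 and 5.73 CPM in nude and at 17.2, 1.16 and 10.95 CPM in AR3_mut, against 3 counts in all of AR3_het. Its pooled log2 ratio to AR3_het was 7.68 in nude (95% counting interval 6.13 to 9.97, adjusted p = 0.00939) and 5.52 in AR3_mut (3.90 to 7.84), which did not pass (adjusted p = 0.0884). The fitted value in nude was 5.98 without nude 3, 8.23 without AR3_het 1 and 7.03 without AR3_het 3. Lcn3, next to Lcn11, reached 41.2 CPM in nude 1 and 12.7 CPM in nude 3, stood at 1.52 to 2.69 CPM in AR3_het and was not tested.

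Lcn2, the siderophore-binding lipocalin of neutrophils and inflamed epithelia, stood at 1240, 90.9 and 236 CPM in AR3_mut, at 112, 260 and 127 CPM in AR3_het, and at 46.6, 40.0, 55.3 and 82.7 CPM in nude. AR3_mut overlapped AR3_het, whereas every nude library was below both, and neither difference from AR3_het passed the test (adjusted p = 0.112 and 0.098). Lcn8 fell in both mutants, from 9.10, 5.15 and 4.51 CPM in AR3_het to 1.17, 0 and 0 CPM in AR3_mut (adjusted p = 0.0133) and to at most 3.69 CPM in nude (adjusted p = 0.0238, lost without AR3_het 1, nude 1 or nude 2). The fitted log2 value of Lcn8 was -7.13 in AR3_mut without AR3_mut 1 and -3.34 in nude without nude 4. Lcn10, Lcn6 and Lcn12, named after their values were seen, had 47, 32 and 25 counts in AR3_het and 0 counts in both mutant groups. Of these, Lcn10 was tested and fell in both, being at least 6.48-fold lower in AR3_mut and at least 11.6-fold lower in nude.

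In the WAP domain family, Wfdc1 rose in both mutants, Wfdc12 rose in nude, and Wfdc17 and Wfdc21 fell in both. Wfdc1, a secreted protein also called ps20, stood at 75.9, 255 and 267 CPM in AR3_mut (199 ± 107, SD, n = 3), at 7.04, 5.46 and 3.22 CPM in AR3_het (5.24 ± 1.92, SD, n = 3), and at 232, 362, 120 and 296 CPM in nude (253 ± 103, SD, n = 4). The mutant libraries did not overlap AR3_het, and the log2 fold change was 5.23 (SE 0.58, adjusted p = 3.35e-05) in AR3_mut and 5.58 (SE 0.58, adjusted p = 1.55e-05) in nude. An antisense gene covers 4517 bases of the Wfdc1 locus.

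Wfdc12 stood at 10010, 138, 1102 and 490 CPM in nude, at 3.31, 3.33 and 2.79 CPM in AR3_het, and at 23.5, 135 and 8.96 CPM in AR3_mut. All 7 mutant libraries lay above AR3_het. The rise in nude was 9.85 on the log2 scale (SE 2.05, adjusted p = 0.00344), or 7.50 without nude 1, and the difference of 4.15 in AR3_mut did not pass (adjusted p = 0.0813). An antisense gene overlaps 1378 bases of the locus.

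Wfdc21 and Wfdc17, neighbours on chromosome 11 and expressed in myeloid cells in the mouse, were nearly absent from the mutants. Wfdc21 stood at 64.4, 66.1 and 26.8 CPM in AR3_het and had 1 count in AR3_mut and 0 counts in nude, where it was at least 161-fold lower (adjusted p = 2.3e-05). Wfdc17 stood at 33.1, 34.0 and 31.8 CPM in AR3_het and at or below 1.11 CPM in each mutant library (adjusted p = 2.63e-05 in AR3_mut and 5.37e-06 in nude). The fitted log2 value of Wfdc21 in AR3_mut was -10.27 without AR3_mut 3, which held the count, and -6.97 without AR3_mut 1, which held 0. That of Wfdc17 was -9.51 in AR3_mut without AR3_mut 1 and -7.56 in nude without nude 3.

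Wfdc18, which lies between Wfdc17 and Wfdc21, did not follow them. It stood at 515, 259 and 126 CPM in AR3_mut, at 593, 578 and 377 CPM in AR3_het, and at 4265, 315, 1102 and 1218 CPM in nude, and both comparisons overlapped (adjusted p = 0.458 and 0.081). Wfdc2, a secreted protein of many glands and airways also known as HE4, stood at 7527, 633 and 1708 CPM in AR3_mut, at 595, 1080 and 361 CPM in AR3_het, and at 483, 252, 1653 and 691 CPM in nude, also overlapping (adjusted p = 0.0724 and 0.875). Wfdc15b reached 107 CPM in nude 1 and stayed at or below 15.3 CPM in every other library. Wfdc3 and Wfdc13, named after their values were seen, stayed at or below 7.43 CPM and were not tested.

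BPI fold genes fell or did not pass. Bpifa1, an abundant secreted defence protein of the upper airway, stood at 2222, 444 and 545 CPM in AR3_mut, at 694, 1152 and 240 CPM in AR3_het, and at 43.7, 12.4, 526 and 724 CPM in nude. All groups overlapped (adjusted p = 0.735 and 0.485). The other members were low in AR3_het and mostly at 0 in the mutants.

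Bpifb1 stood at 26.7, 48.8 and 7.29 CPM in AR3_het, at 2.35, 0 and 1.99 CPM in AR3_mut (adjusted p = 0.00704) and at 0 counts in nude, where it was at least 79.7-fold lower (adjusted p = 0.000508). Bpifa5 stood at 7.04, 16.7 and 7.29 CPM in AR3_het and at 0 counts in every mutant library, at least 17.0-fold lower in AR3_mut (adjusted p = 0.00246) and at least 30.3-fold lower in nude (adjusted p = 0.000728). Bpifb2 and Bpifc, with 80 and 131 counts in AR3_het, fell likewise in both mutants, with 0 counts in AR3_mut and at most 1 in nude. The fitted log2 value of Bpifb1 in AR3_mut was -5.09 without AR3_mut 1 and -3.56 without AR3_het 2 (-8.56 in nude), and that of Bpifc in nude -7.88 without nude 4. Bpifb3 and Bpifb6 were not tested and had 56 and 25 counts in AR3_het and at most 1 in each mutant group. Bpifb5 stood between 0.995 and 7.24 CPM in all libraries, and its adjusted p was 0.883 in both comparisons.

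Of 8 tested mucins, 3 fell in AR3_mut, 6 fell in nude and 0 rose in either. Of all tested genes, 20.6% were called lower in AR3_mut and 24.2% in nude. Muc13, a membrane-bound mucin, stood at 51.3, 54.3 and 40.8 CPM in AR3_het (48.8 ± 7.10, SD, n = 3), at 3.52, 4.63 and 5.97 CPM in AR3_mut, and at 0.723, 6.19, 0.553 and 3.69 CPM in nude. It fell by 3.43 (SE 0.55, adjusted p = 0.000421) and by 4.08 (SE 0.49, adjusted p = 4.43e-05) on the log2 scale, the latter value being -4.80 without nude 2. Muc5ac, a gel-forming mucin of goblet cells, stood at 14.3, 12.1 and 11.4 CPM in AR3_het and at 1.96, 0 and 0 CPM in AR3_mut (adjusted p = 0.00387), and had 0 counts in nude, at least 39.9-fold lower (adjusted p = 0.000232). In AR3_mut only AR3_mut 1 held any Muc5ac count, and the fitted log2 value was -8.13 without it.

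Muc1, a membrane mucin of most glands, stood at 74.3, 99.1 and 55.4 CPM in AR3_het, at 46.9, 6.95 and 22.9 CPM in AR3_mut, and at 7.95, 2.89, 31.5 and 6.96 CPM in nude. It fell by 2.69 on the log2 scale in nude (SE 0.68, adjusted p = 0.00695), or 3.66 without nude 3; in AR3_mut the difference of -1.53 did not pass (adjusted p = 0.108), although all 3 libraries lay below AR3_het. Muc5b, the other main gel-forming mucin of airways and salivary glands, stood at 8.07, 34.6 and 23.8 CPM in AR3_het, at 52.4, 1.74 and 0 CPM in AR3_mut, and at or below 1.11 CPM in nude, where it fell by 5.54 (SE 1.42, adjusted p = 0.00764). Without nude 3 that value was -6.17. For Muc5b, AR3_mut 1 lay above all AR3_het libraries and the other AR3_mut libraries below (adjusted p = 0.919).

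Muc4, a membrane mucin, stood at 13.2, 16.7 and 6.87 CPM in AR3_het, at 32.5, 6.95 and 2.99 CPM in AR3_mut (adjusted p = 0.762), and had 3 counts in nude, all in nude 4 (adjusted p = 0.00169). Without nude 4 the fitted log2 value was -8.09. Muc20 lies on the opposite strand and overlaps Muc4 by 4973 bases. It stood at 38.3, 5.21 and 9.95 CPM in AR3_mut and at 3.93, 6.67 and 1.72 CPM in AR3_het (adjusted p = 0.0658). Muc2 and Muc15, named after their values were seen, stayed at or below 11.2 CPM in every library; Muc2 fell in nude (adjusted p = 0.00388) and Muc15 in AR3_mut (adjusted p = 0.0358). Muc19 stayed at or below 4.30 CPM and was not tested.

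The remaining genes cover water transport and defence. Aqp5, the water channel of salivary, lacrimal and airway gland cells, was among the most even members. It stood at 352, 247 and 288 CPM in AR3_mut (295 ± 53.1, SD, n = 3), at 29.2, 37.6 and 16.3 CPM in AR3_het (27.7 ± 10.7, SD, n = 3), and at 484, 435, 304 and 567 CPM in nude (448 ± 110, SD, n = 4). It rose by 3.42 (SE 0.33, adjusted p = 1.05e-05) and 4.02 (SE 0.33, adjusted p = 2.77e-06) on the log2 scale, in 7 of 7 mutant libraries.

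Bricd5, a gene of the BRICHOS domain family, stood at 14.1, 6.95 and 29.9 CPM in AR3_mut and at 259, 91.1, 80.2 and 186 CPM in nude, against 2 counts in AR3_het. All mutant libraries lay above AR3_het, with a pooled log2 ratio of 6.56 in AR3_mut (95% counting interval 4.66 to 9.63, adjusted p = 0.000351) and 10.03 in nude (8.17 to 13.07, adjusted p = 4.96e-06). The Bricd5 locus overlaps Mlst8 on the opposite strand over 1586 bases.

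Dnase1, a secreted nuclease of saliva and tears, stood at 374, 7.01, 254 and 195 CPM in nude, at 2.07, 1.82 and 2.36 CPM in AR3_het, and at 1.56, 4.05 and 0.995 CPM in AR3_mut. It rose in nude by 6.595 on the log2 scale (SE 1.17, adjusted p = 0.00117, lost with limma-voom at 0.0558), and AR3_mut overlapped AR3_het (adjusted p = 0.966).

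Ltf, the iron-binding lactoferrin of milk, tears and neutrophil granules, stood at 6112, 185 and 88.6 CPM in AR3_mut, at 223, 310 and 80.7 CPM in AR3_het, and at 65.4, 2.47, 4.43 and 115 CPM in nude. The high AR3_mut mean rested on AR3_mut 1, and neither comparison passed (adjusted p = 0.153 and 0.286). All 5 tested neutrophil genes were called lower in both mutants, against 20.6% of all tested genes in AR3_mut and 24.2% in nude. The summed level of the listed neutrophil genes was 11.3, 1.16 and 3.98 CPM in AR3_mut, against 144 to 208 CPM in AR3_het. Within AR3_mut it was highest in AR3_mut 1, the library also highest for Ltf and Lcn2. The part of neutrophils in the Ltf level was not tested.

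Lyz1, the lysozyme of intestinal Paneth cells in the mouse, stood at 200, 193 and 75.1 CPM in AR3_het, at 2.74, 0.579 and 0 CPM in AR3_mut, and had 1 count in all of nude. It fell in both (adjusted p = 8.52e-06 and 1.18e-06), with a log2 fold change of -6.69 in AR3_mut, or -8.57 without AR3_mut 1. In nude the fitted value was -11.80 without nude 3, which held the count. Of its 50-base 3′ stretches, 21.9% occur in Lyz2, so its counts may include reads of that gene.

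**Figure D4:**
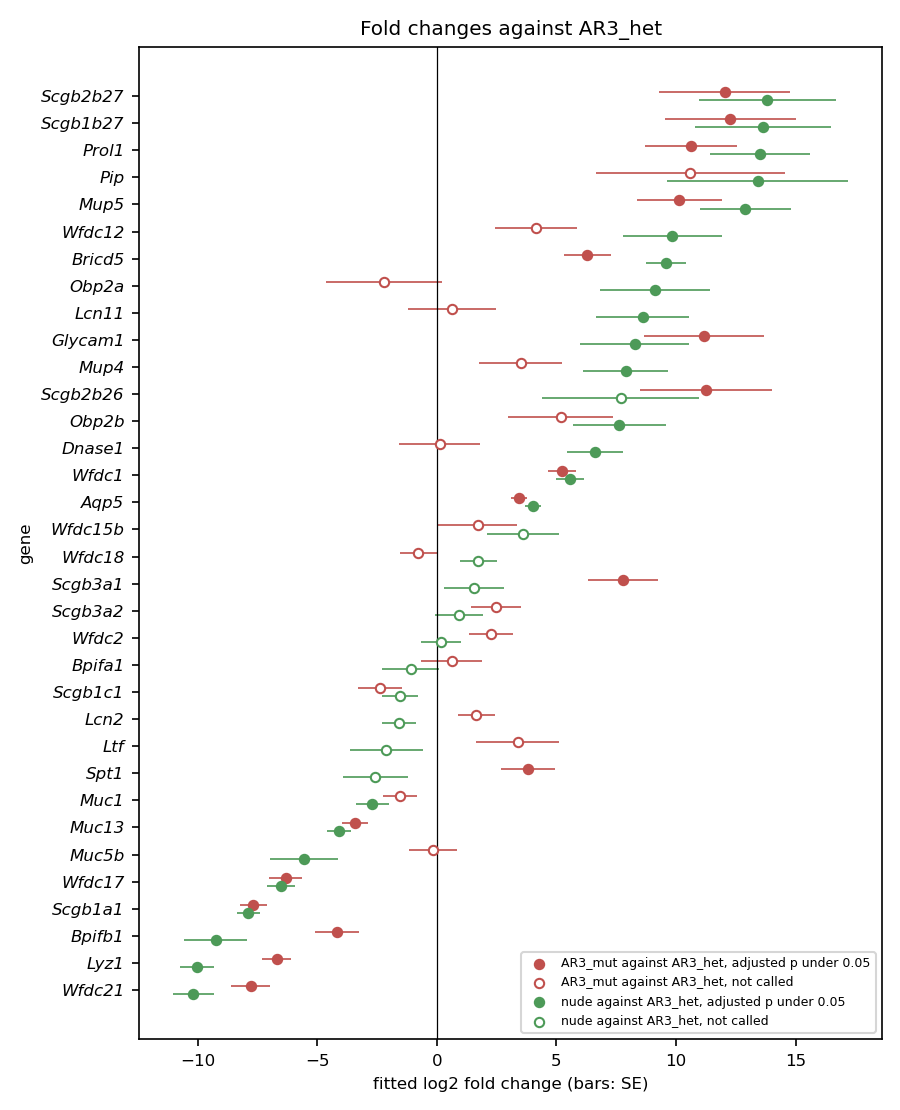
Points give the fitted log2 fold change against AR3_het (x axis, bars are the SE) of the 34 tested genes with a group mean of 20 CPM or more (y axis), for AR3_mut and nude, which share the AR3_het libraries; filled points passed an adjusted p under 0.05, and fitted values of genes with 0 counts in a group are not bounds. Obp2a, Lcn11 and Dnase1 are called higher in nude and not in AR3_mut, and Scgb3a1 in AR3_mut and not in nude.

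Genes that moved together over the 7 mutant libraries were found from the SD of their log2 ratio, log2(CPM + 1), where a small SD means a near constant ratio. The 7 values come from 2 groups and share each library's depth, and the measure is a description with no test. Scgb1b27 and Scgb2b27 had an SD of 0.362, against SDs of 2.86 and 2.87 for the genes alone. Scgb2b27 was the only one of 12911 genes within an SD of 1 of Scgb1b27, where the median was 2.89. In counts, Scgb2b27 had 0.389, 0.64 and 0.561 per Scgb1b27 count in AR3_mut and 0.684, 0.789, 0.826 and 0.659 in nude. The ratio of these neighbours thus stayed within a narrow range while the level of each varied widely.

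By the same measure the 8 genes most like Scgb1b27 were Scgb2b27, Wfdc15b (1.37), Pip (1.71), Hist1h1e (1.72), Prol1 (1.84), Cldn2 (1.87), Esp8 (1.89) and Uqcrb (1.93). Hist1h1e, Cldn2, Esp8 and Uqcrb alone had SDs of 1.555, 1.428, 1.625 and 1.33. Each varied less alone than its ratio to Scgb1b27 did, so these 4 did not keep a near constant ratio. Esp8 encodes an exocrine-gland secreted peptide and stood at 4.30, 10.4 and 0 CPM in AR3_mut and at 44.1, 7.84, 6.08 and 7.37 CPM in nude. Among the other members the closest pairs were Muc1 with Wfdc2 (0.544), Aqp5 with Wfdc1 (0.796), Lcn2 with Wfdc2 (0.799) and Prol1 with Wfdc18 (1.07). Aqp5 alone varied less than this pair did (0.435), so its closeness to Wfdc1 reflects that both were even.

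Other pairs, chosen after the counts were seen, did not keep their ratio. Lcn11 had 0.225 to 0.289 counts per Obp2a count in nude 1, nude 2 and nude 3 and 4.65 in nude 4. Wfdc12 had 0.177 to 0.209 counts per Scgb1b27 count in the same 3 libraries and 1.13 in nude 4, and only 0.00336 in AR3_mut 1 and 0.0154 in AR3_mut 2. Mup4 had 0.0153 to 0.871 counts per Mup5 count over the mutant libraries.

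**Figure D5:**
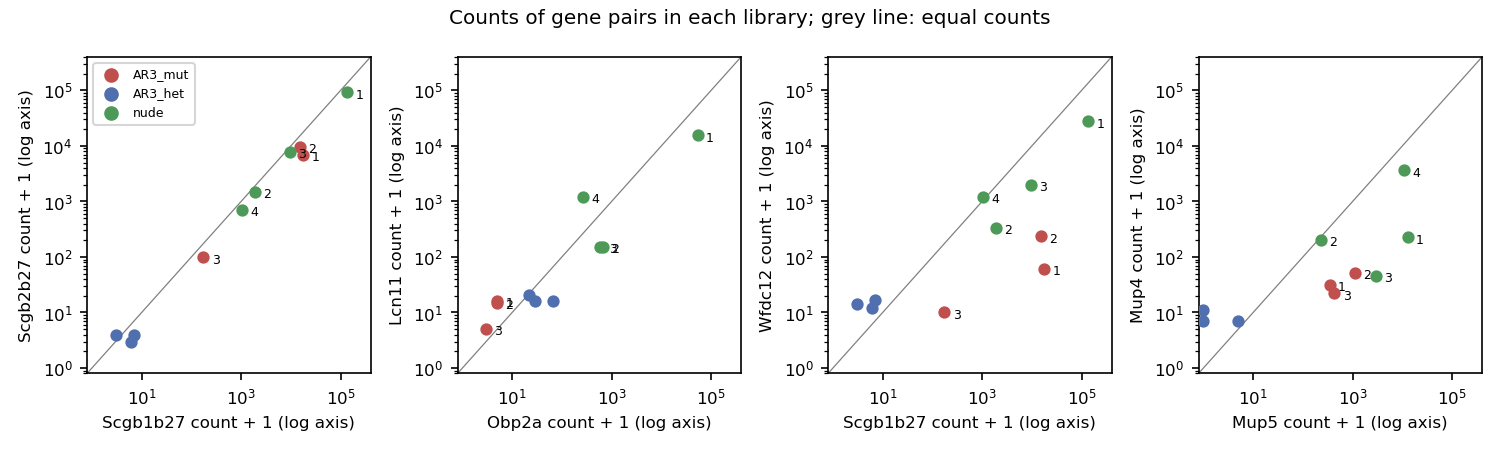
Each panel sets the counts + 1 of 2 genes against each other on log axes, 1 point per library, coloured by group and numbered by replicate in the mutants; the grey line marks equal counts. Scgb2b27 and Scgb1b27 lie along a line parallel to it in all 7 mutant libraries, while nude 4 lies apart from the other nude libraries for Lcn11 with Obp2a and Wfdc12 with Scgb1b27.

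Genes of gland cells outside the set were examined from lists, given as counts and medians. Of 13 tested salivary and lacrimal acinar genes, 4 were higher and 2 lower in AR3_mut, and 6 higher and 1 lower in nude, with median log2 fold changes of 1.03 and 1.67. Klk1, with the highest group mean of that list, stood at 224.5, 141 and 493 CPM in AR3_mut and at 275, 252 and 96.5 CPM in AR3_het. In nude it stood at 964, 270, 16.0 and 356 CPM, and neither comparison passed (adjusted p = 0.762 and 0.458). Bhlha15, the transcription factor Mist1 of acinar cells, was named after its values were seen. It stood at 10.2, 6.37 and 4.98 CPM in AR3_mut, at or below 0.644 CPM in AR3_het, and at 77.7, 5.77, 20.5 and 38.5 CPM in nude (adjusted p = 0.0121 and 0.000228). Lpo, the lactoperoxidase of saliva, tears and milk, went the other way, from 191, 223 and 128 CPM in AR3_het to at most 1.74 CPM in AR3_mut and to 43.0, 3.30, 6.64 and 57.7 CPM in nude (adjusted p = 0.000589 and 0.0076). Dcpp1 was the other gene that fell in AR3_mut (adjusted p = 0.0412). Of 13 tested gland transcription factors, 3 were higher and 2 lower in AR3_mut, and 3 higher and 3 lower in nude. Their median log2 fold changes were -0.35 and 0.47. Of all tested genes, 21.2% were higher and 20.6% lower in AR3_mut, and 23.7% higher and 24.2% lower in nude. The transcription factor counts lay near these shares. Sox10, which marks acinar and myoepithelial precursors in salivary and lacrimal glands, was 1 of the 3 higher in each mutant. No other gene of that list is named here. Sox10 stood at 39.5, 30.1 and 118 CPM in AR3_mut and at 125, 120, 109 and 143 CPM in nude, against 1.93 to 5.46 CPM in AR3_het (adjusted p = 8.61e-05 and 1.24e-05).

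The acinar list was carried by different genes in different libraries. Prh1, a salivary proline-rich protein, stood at 1414 CPM in nude 4, 28.8 CPM in nude 3 and 0 counts in nude 1 and nude 2, so the library highest for Mup4 was also highest for Prh1 and not for Scgb1b27. Of 13 tested genes of the secretory pathway, 3 were higher and 1 lower in AR3_mut, and 7 higher and 0 lower in nude, where 21.2% and 23.7% of all tested genes were higher. Among 15 tested airway club and mucous genes, 3 were higher and 4 lower in AR3_mut, and 2 higher and 9 lower in nude. The shares of all tested genes called lower were 20.6% in AR3_mut and 24.2% in nude. The summed level of these airway genes was 4865 CPM in AR3_mut 1, the library highest for Scgb3a1, Wfdc2 and Ltf. It was 590 and 1287 CPM in the other AR3_mut libraries and 3752 to 6304 CPM in AR3_het. Thyroid and parathyroid genes were uneven as well, with Tg (thyroglobulin) at 17700 CPM in nude 3 and at or below 221 CPM elsewhere. The part of such tissue in the secretion gene levels was not tested.

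The test of AR3_mut against nude asked directly which genes differed between the mutants. Of the 45, 5 were higher and 5 lower in AR3_mut, against 7.58% and 3.71% of all tested genes (11.3% in all), and 21 had an unadjusted p under 0.05. All AR3_mut libraries were above all nude libraries for 4 of the 45 and below for 6, against 12% and 8.73% of all tested genes (20.7% in all without overlap). Scgb3a1 was higher in AR3_mut by 6.22 (SE 1.20, adjusted p = 0.0123), in 3 of 3 libraries above all 4 nude libraries, or by 4.09 without AR3_mut 1. Lcn2, Muc4, Muc5b and Spt1 were higher by 3.22, 5.39, 5.39 and 6.398 on the log2 scale (adjusted p = 0.0212, 0.00805, 0.0368 and 0.0139). Without AR3_mut 1 the differences of Lcn2 and Muc5b were 1.53 and 1.23 and no longer passed, and without nude 4 those of Muc4 and Spt1 were 8.41 and 9.17. Muc4 was at 3.87 without AR3_mut 1, Spt1 at 5.04 without AR3_mut 2, Muc5b at 6.05 without nude 3 and Scgb3a1 at 6.96 without nude 4. With limma-voom the calls of Muc5b and Spt1 were lost. The call of Lcn2 was also lost without nude 1 or nude 2, and that of Muc5b without any 1 nude library or without AR3_het 2 or AR3_het 3.

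Obp2a was lower in AR3_mut by a log2 difference of -11.32 (SE 2.65, adjusted p = 0.027), which was -6.93 without nude 1. Lcn11, Dnase1 and Bricd5 differed by -7.97, -6.48 and -3.28 (adjusted p = 0.0306, 0.0122 and 0.00353), and Muc15 by -2.06 (adjusted p = 0.0256). Lcn11 was at -5.11 without nude 1 and Dnase1 at -7.18 without AR3_mut 2. The calls of Obp2a and Lcn11 were lost when any AR3_mut library was left out, that of Lcn11 also when any AR3_het library was, and that of Dnase1 without AR3_mut 1. With limma-voom the calls of Obp2a, Lcn11 and Dnase1 were lost. For Obp2a, Lcn11, Dnase1 and Bricd5 every AR3_mut library lay below every nude library. The genes with the highest levels were not among those that passed: Scgb1b27, Scgb2b27 and Prol1 differed by -1.38, -1.78 and -2.86 with SEs of 1.61, 1.61 and 1.27 (adjusted p = 0.648, 0.539 and 0.187). Without nude 1 the differences of Scgb1b27 and Scgb2b27 were 1.30 and 0.68, so nude 1 alone set their sign. Strain and age changed with the nude label, so these differences cannot be told apart from either.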

How the data were processed

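Sorted TEC from 3 groups were measured by bulk 3′ MARS-seq in 10 libraries. The authors deposited raw counts per gene. Beside them stand the authors' log2 fold changes and p-values, adjusted, from 3 comparisons of their own. Tools listed in the submitters' processing notes, with neither role nor order, are STAR 2.4.2a, HTSeq, cutadapt, bcl2fastq and DESeq2, and the build is mm10. No source used here says how the counting treated strand or molecular identifiers. The table's other 20 columns of per-sample values were left unused.

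Raw counts were fitted in R 4.3.3 with edgeR 4.0.16 over the whole table: TMM scaling, filterByExpr (minimum count 10, minimum total 15), a robust quasi-likelihood model with group as the only term over all 10 libraries, and Benjamini-Hochberg adjustment over 12912 genes. All tests were two-sided at 0.05. The SE is the absolute log2 fold change divided by the square root of F. A group with 0 counts has no finite fold, so a lower bound against 3 counts over the group is given, and 1 to 3 counts carry a 95% counting interval. The scripts were tested on simulated data.

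In the names of the authors' comparisons, Foxn1_ATAC was taken to mean AR3_mut, since Het and nude name the remaining groups. The authors' deposited table has 29 members under 0.05 where AR3_mut is set against AR3_het, 34 where nude is, and 17 between the mutants. They include all 24, 31 and 10 called here, with the same sign.

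Members and gene lists were chosen with earlier results of these data known. Named members are up to 6 per family with the highest group mean, and every called member with a group mean of 20 CPM or more. From each list up to 4 genes with the highest group mean could be named; Bhlha15, Esp8 and others outside that limit were chosen after their values were seen. Gene positions and overlaps come from GENCODE M21, in which 55 of 56 symbols matched directly. Shared 3′ sequence was searched with 50-base stretches of the last 300 bases of each gene's transcript. Promoters come from RefSeq on GRCm38.p6. Alternatives used DESeq2 1.42.0, limma 3.58.1 (voom), other scalings, no filter, a replicate block and each library left out.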

Additional observations from a re-analysis of the deposited data

Results flagged for a closer look

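In nude, 20 named genes with a group mean of 20 CPM or more were examined for a library far from the other 3, and chance flags about 1 in 20 such groups where values are near normal, which CPM over so wide a range are not. On the CPM scale 1 library stood apart in 8 of them, 7 of which rest on the same library. On log2(CPM + 1), a scale added after the data were seen, 0 of these 8 did, and 1 other gene, Dnase1, did, with nude 2 low. Nude 1 stood apart for Scgb1b27 (48670 CPM), Prol1 (45090 CPM), Scgb2b27 (33300 CPM), Obp2a (19320 CPM), Wfdc12 (10010 CPM), Lcn11 (5581 CPM) and Pip (1667 CPM). Nude 4 stood apart for Mup4 (1487 CPM).

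The effects of the 2 mutants against AR3_het differed for 9 named genes, by edgeR's test of AR3_mut against nude. The log2 difference of the effects, AR3_mut minus nude, was 6.398 for Spt1, 6.22 for Scgb3a1, 5.39 for Muc5b, 5.39 for Muc4 and 3.22 for Lcn2. It was -3.28 for Bricd5, -6.48 for Dnase1, -7.97 for Lcn11 and -11.32 for Obp2a.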

How the results depend on the processing

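Of 60 called values of named genes, 47 stayed called in every alternative that gave a value, 13 were lost in at least 1 and 0 reversed; by comparison these 47 were 20 of 22 in AR3_mut against AR3_het, 25 of 29 in nude against AR3_het and 2 of 9 in AR3_mut against nude. DESeq2 gave no adjusted p for 9 named values. Leaving out 1 library moved 42 of the 60 by over 1.5 times. Without TMM the median of all genes shifted to -0.33 in AR3_mut and -0.41 in nude, and the calls to 2066 higher with 3881 lower and 2145 higher with 4867 lower, against 2741 with 2661 and 3059 with 3123. Depth limits the genes at 0 to 3 counts, whose folds are bounds or intervals.

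Apart from the genes lower in nude without TMM, the counts of all genes called and of members higher and lower moved by over 1.5 times only in AR3_mut against nude. All genes called, 1458, became 948 with the replicate block, 883 to 1993 with 1 library left out, and 474 without AR3_mut 1 and nude 1 together, an alternative added after the data were seen. Members higher, 5, became 8 with DESeq2, 3 with limma-voom, 3 to 7 with 1 library left out and 1 without both libraries. Members lower, 5, became 2 with limma-voom, 3 with the block, 1 to 8 with 1 library left out and 3 without both libraries. The cause was not tested.

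Same-numbered libraries of different groups deviated together weakly or not at all (correlations of -0.32 to 0.161 in 9 pairs), and a library correlated best with its own number in 3 of 18 checks, so the numbers do not pair the libraries. With the block, 12 members were higher and 12 lower in AR3_mut against AR3_het, and 16 and 18 in nude against AR3_het. The block lost the calls of Spt1 in AR3_mut against AR3_het (3.07, adjusted p = 0.0759) and of Lcn11, Lcn2 and Muc5b in AR3_mut against nude (adjusted p = 0.101, 0.114 and 0.217).

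The sign turned for these uncalled differences. In AR3_mut against AR3_het, leaving out 1 library gave ranges of -0.49 to 1.12 for Bpifa1, -0.64 to 0.44 for Dnase1, -0.033 to 2.09 for Lcn2, -0.56 to 3.95 for Ltf, -1.20 to 0.73 for Muc4 and -4.31 to 0.34 for Muc5b. Without both libraries Bpifa1 was -0.49, Lcn2 -0.032, Ltf -0.56 and Muc4 -1.20; Dnase1 was -0.18 without TMM and Muc4 -0.18 with the block. In nude against AR3_het the ranges were -0.35 to 1.35 for Scgb3a2, which was -0.295 with limma-voom, and -0.51 to 0.62 for Wfdc2, which was -0.15 without TMM, -0.009 with limma-voom and -0.13 with the block. In AR3_mut against nude they were -1.96 to 1.30 for Scgb1b27, -2.79 to 0.68 for Scgb2b27 and -0.62 to 0.042 for Wfdc1, and without both libraries 1.05, 0.71 and 0.003.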
